A study of Homo sapiens with 5 samples.

Results

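The 44 genes described here encode the actin cytoskeleton and contractile apparatus of IMR-90 cells, a line of normal human lung fibroblasts. They were chosen by symbol and by known function, with earlier results of these data known. All 44 were found among the 26364 genes listed in the normalized count table. They cover actins, calponins and transgelins, nonmuscle myosin chains, tropomyosins, crosslinkers, adhesion linkers, actin turnover factors, regulators of contraction and the intermediate filament protein vimentin. Growing IMR-90 cells were transfected with siRNA and collected after 24 h for mRNA-seq, to ask how the transcriptome changes when the histone H3 lysine methyltransferase NSD2 (also called WHSC1 or MMSET) is depleted. Ctr-KD cells received a control siRNA (n = 2 libraries), and NSD2-KD cells received NSD2-1, NSD2-2 or NSD2-3, each an siRNA against NSD2 with 1 library (n = 3 libraries). Within NSD2-KD cells, replicate and siRNA are thus the same thing and cannot be told apart, all libraries come from 1 cell line, and the control siRNA is shared by every comparison.

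Fibroblasts pull on their surroundings through stress fibers, bundles of actin filaments crosslinked by alpha-actinin and filamin and moved by nonmuscle myosin II. Tropomyosin, calponin and caldesmon coat the filaments, and talin, vinculin, paxillin and zyxin tie them to integrins at focal adhesions. The ROCK kinases keep myosin light chains phosphorylated, and unpolymerized actin holds back some cofactors of the transcription factor SRF, which binds CArG boxes in many of these genes. Smooth muscle actin, transgelin and calponin mark the myofibroblast state.

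In a bulk library, fewer cells that express a gene and less RNA per cell cannot be told apart. The libraries held between 2473691 and 2845063 reads on genes, and the 44 genes took 5.95% and 5.96% of them in Ctr-KD cells and 5.51% (NSD2-1), 5.86% (NSD2-2) and 5.96% (NSD2-3) in NSD2-KD cells. NSD2 itself had normalized counts of 463 and 443 in Ctr-KD cells and of 90.2, 81.9 and 87.9 in NSD2-KD cells, which is between 18.1% and 19.9% of the Ctr-KD mean in each knockdown library (log2 difference -2.37, SE 0.12, limma with Benjamini-Hochberg adjustment, adjusted p = 0.000464). The fibroblast label was checked against markers: 9 of 10 fibroblast markers had a mean normalized count of at least 10, with COL1A1 and COL1A2 the most abundant. Summed fibroblast markers ranged from 153862 to 157858 in Ctr-KD cells and from 144466 to 160899 in NSD2-KD cells. Of 10 smooth muscle markers, 8 reached a mean of 10 (3 of the 10, ACTG2, CNN1 and SMTN, are among the 44 genes), but the defining MYH11 had a mean of 17.9 and DES of 0.206. Their sum was 3176 and 3256 in Ctr-KD cells and 2888, 2964 and 3105 in NSD2-KD cells, lower in each knockdown library. ACTG2 was the largest term, with 1906 and 1949.6 against 1564, 1629 and 1858. The sum had the same order of libraries as ACTG2, so it is not independent of the 44 genes. It does not show a fall of the marker set as a whole. CNN1 and LMOD1 were also lower in each knockdown library, while SYNM, MYH11, MYOCD and ITGA8 overlapped between groups. The markers did not all move this way: SMTN had 288 and 330 against 460, 410 and 324. The part of such cells in the values below was not tested. Of 10 striated muscle markers 5 were at 0 in every library (TNNI1, MYOG, MYOD1, MYH7 and CKM), as were KRT5 for epithelium, CDH5 and PECAM1 for endothelium and PTPRC, CD3E, LYZ and TYROBP for immune cells. Other markers of these types did reach a mean of 10: KRT8 (78.6), KRT18 (98.3) and CLDN4 (13.3) of 7 epithelial markers, TEK (132) of 6 endothelial markers and CD68 (78.8) of 7 immune markers. The epithelial sum was 275 with NSD2-3 and between 169.8 and 178 in the other libraries, and its part in the values below was not tested.

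Between the Ctr-KD libraries the difference barely exceeded what the sampling of reads gives (chi-square per degree of freedom 1.05 over 11352 genes), whereas every other pair of libraries gave between 4.11 and 5.65. The Ctr-KD spread thus comes close to counting error, and the NSD2-KD spread is wider. The study's methods call the Ctr-KD libraries biological replicates, without saying how they were grown, and p-values here measure only the spread between these samples.

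Normalized counts were divided by the length of the merged exons of each gene (GENCODE on GRCh37) to compare levels between genes, in normalized counts per kilobase. On this scale ACTB and ACTG1, the cytoplasmic beta- and gamma-actins, led in Ctr-KD cells (n = 2) with 5083 ± 48.5 (SD) and 3396 ± 78.9. Vimentin (VIM) followed with 2721 ± 1.08, and profilin 1 (PFN1), which feeds actin monomers to growing filaments, with 2179 ± 24.8. These 4 genes kept the order in NSD2-KD cells, with 4585 ± 544, 3591 ± 298, 2542 ± 222 and 2182 ± 85.0 (SD, n = 3), and under the length of the canonical transcript. The smooth muscle actins ACTA2 (460.1 ± 16.1) and ACTG2 (506 ± 8.03) lay well under ACTB in Ctr-KD cells, and at the low end were ROCK2 (28.2 ± 2.31), ROCK1 (26.3 ± 0.0671) and MYH10 (17.3 ± 0.638), the heavy chain of nonmuscle myosin IIB. The rest of the order, the low end included, depends on which transcript is taken as the length. Of the 10 highest genes under merged exons, 6 remained among the 10 highest under the canonical transcript. Under the latter, ROCK1 (37.2) and ROCK2 (39.4) were lowest, MYH10 (73.2) lay above LPP, PDLIM5 and TES, and ACTA2 (1919.5) lay above ACTG2 (1284).

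What these genes share in their promoters was read from RefSeq sequences (GRCh38.p14), from 250 bases before to 50 bases after 1 RefSeq start site per gene, which need not be the start used in these cells. A promoter was in the table for 40 of the 44 genes, and none for ACTB, TAGLN, MYL9 and PFN2. In 36 of the 40 this start lay within 1000 bases of the 5′ end of the gene, but in CALD1, MYLK, TPM1 and TPM3 it lay further inside. In MYLK it lay 263784 bases inside a gene of 274284 bases. That window thus belongs to a short transcript from the 3′ end and not to the full kinase. An outermost start need not be the one used either. For ACTA2 only the start at the outer end of a gene of 56264 bases was read, and its inner starts were not searched. A strict CArG box, the site of SRF, lay on either strand in 7 of the 40 promoters (17.5%), against 1.29% of all 35116 promoters of the same length. Without the 4 inner starts, 6 promoters held one. The background was not limited to genes expressed in these cells. The 44 genes also come from a class known for CArG boxes, so the gap is a description and not a result of these data. The 8 boxes are shown because SRF is the best known regulator of this gene group. Each line gives 30 bases on the strand of the gene with the box in capitals:
ACTG1 (chr17:81512874-81512903, minus strand): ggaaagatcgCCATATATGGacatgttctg
ACTG2 (chr2:73892888-73892917, plus strand): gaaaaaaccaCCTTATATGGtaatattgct
ACTG2 (chr2:73892925-73892954, plus strand): cgtcagctggCCTTTTTAGGgactttgttt
CNN2 (chr19:1026509-1026538, plus strand): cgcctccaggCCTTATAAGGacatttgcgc
FLNA (chrX:154374709-154374738, minus strand): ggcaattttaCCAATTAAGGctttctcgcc
MYLK (chr3:123620623-123620652, minus strand): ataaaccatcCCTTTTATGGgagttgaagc
ROCK2 (chr2:11345491-11345520, minus strand): aaatgtacttCCTTAAATGGgtttactggg
TPM4 (chr19:16067355-16067384, plus strand): aatcctaggtCCAAATAAGGcgagggctgc

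The boxes were centred between -168 (TPM4) and -68 bases (ROCK2 and the second box of ACTG2) from the start site. With 1 mismatch allowed in the A/T core, 11 of the 40 promoters (27.5%) held a box, adding ACTN4, LPP, VASP and ZYX, against 8.13% of all promoters. The TEAD core GGAATG, sought on both strands, was found in 9 of the 40 (22.5%), against 14.0% of all promoters, and it overlapped a strict CArG box in none (0) of them. A match is a run of letters and not a measured site, and a box outside these 300 bases was not looked for. In NSD2-KD cells the 7 genes with a strict box had log2 differences between -0.20 (ACTG2) and 0.25 (ROCK2), with a median of 0.02, beside a median of -0.02 for all 44 genes.

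None of the 44 genes passed the test between NSD2-KD and Ctr-KD cells, and for most of them the interval of the mean difference over the siRNAs was narrow. Such an interval does not bound the change with a single siRNA. The 44 genes had 0 calls by limma on log2(normalized count + 1) at an adjusted p under 0.05, where 6 lower (0.0530%) and 4 higher (0.0354%) genes were called among 11313 tested. At an unadjusted p under 0.05 there were also 0 members, while 4.99% of all tested genes were lower and 4.19% were higher at that level. The smallest p was that of CFL1, with an adjusted p of 0.556 by limma. On the recovered reads, edgeR called 11 genes lower and 5 higher and DESeq2 called 41 and 15, in each case with 0 of the 44. At an unadjusted p under 0.05, edgeR had 1 of the 44 (SMTN, higher), beside 5.28% of all tested genes lower and 3.96% higher. DESeq2 had 0 of the 44, beside only 1.94% lower and 1.1% higher. The median log2 difference of the 44 genes was -0.02, beside -0.0089 over all tested genes, with 23 genes below 0 and 21 above. The median size of the difference was 0.09 on the log2 scale (0.16 over all tested genes), and the median SE was 0.10 (0.19).

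The 95% interval of the difference lay within 1.5-fold in both directions for 39 of the 44 genes, which was so for 45.0% of all tested genes and for 78.4% of the 3817 tested genes that were with a normalized count at least that of TES, the lowest of the 44 before division by length. For 19 of the 44 the interval lay within 1.25-fold (6.97% of all tested genes), and for 43 within 2-fold (83.1%). Shares among the 3817 abundant genes were not computed at these folds. LPP, MYH10, PDLIM5, PXN and SMTN were the 5 genes whose interval reached past 1.5-fold. In 7 genes (ACTG2, TAGLN, CNN1, MYH10, FLNC, LPP and PFN2; 15.9%) all NSD2-KD libraries lay below both Ctr-KD libraries, beside 13.9% of all tested genes. In 3 genes (TLN1, CFL1 and ROCK2; 6.82%) all lay above, beside 13.8%. The share of genes below is thus near the background, and these are counts of order and not calls. They also rest on single libraries. Without NSD2-1, 18 of the 44 lay above (22.3% of all tested genes), and without NSD2-2, 15 lay below (20.6%). Without Ctr-KD 1, 12 lay below (23.7%) and 5 above (23.8%). Without Ctr-KD 2, 6 lay above (23.9%), and without NSD2-3, 5 lay above (22.1%), while quantile normalization gave 12 below (11.99%).

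**Figure D1:**
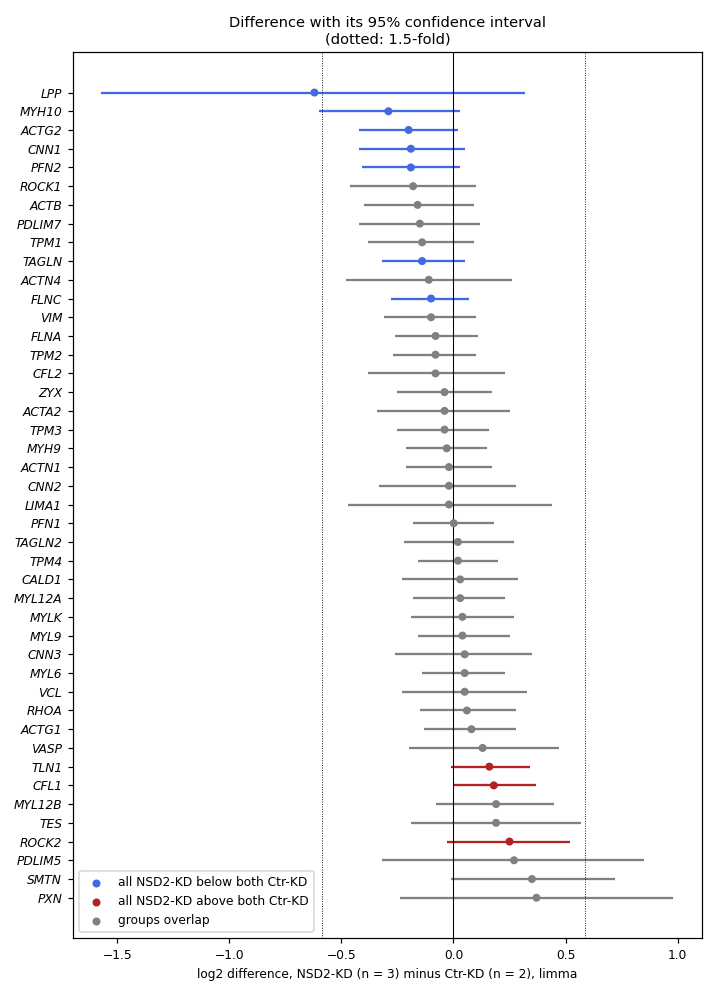
Log2 difference of the 44 genes between NSD2-KD (n = 3) and Ctr-KD cells (n = 2), from limma on log2(normalized count + 1), with 95% confidence intervals as lines. Blue marks the 7 genes with all NSD2-KD libraries below both Ctr-KD libraries, red the 3 genes with all above and grey the others. All intervals span 0, and those of 39 genes lie within the dotted 1.5-fold lines.

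The actins were led by ACTB, which had normalized counts of 22239 and 22541 in Ctr-KD cells and of 20398 (NSD2-1), 17710.0 (NSD2-2) and 22486 (NSD2-3) in NSD2-KD cells. Its NSD2-2 library was the lowest and NSD2-3 lay between the Ctr-KD values, so the groups overlapped (log2 difference -0.16, SE 0.10). ACTG1 had 13536 and 13989 in Ctr-KD cells and 13546, 15887 and 14218 in NSD2-KD cells. Here NSD2-2 was the highest library, and the log2 difference was 0.08 (SE 0.09). ACTA2, the smooth muscle alpha-actin and usual myofibroblast marker (GRCh37 annotation, exons shared in part with ACTA2-AS1 and FAS on the other strand), had 2526 and 2653 in Ctr-KD cells and 2093, 2815 and 2681 in NSD2-KD cells. Only NSD2-1 was below both Ctr-KD libraries, while NSD2-2 and NSD2-3 were above them (log2 difference -0.04, SE 0.13, 95% interval -0.34 to 0.25). ACTG2, the enteric smooth muscle gamma-actin (chr2:74119441-74146992, plus strand), had 1906 and 1949.6 in Ctr-KD cells and 1564, 1629 and 1858 in NSD2-KD cells. The groups did not overlap, although NSD2-3 reached 96.4% of the Ctr-KD mean (log2 difference -0.20, SE 0.10, limma with Benjamini-Hochberg adjustment, adjusted p = 0.597). Reads that fit both of near-identical paralogs such as ACTB and ACTG1 or ACTA2 and ACTG2 are lost when only uniquely mapped reads are counted, so their levels are uncertain.

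Among the calponin and transgelin family, TAGLN and CNN1 were slightly lower with each siRNA and SMTN had the largest difference. TAGLN and CNN1 are myofibroblast markers, but the marker ACTA2 overlapped between groups (log2 difference -0.04). The 2 genes are among the 7 below without overlap, a share of 15.9% that is near the 13.9% of all tested genes. CNN1, the smooth muscle calponin (chr19:11649582-11661138, plus strand), had 368 and 369 in Ctr-KD cells and 329, 316 and 327 in NSD2-KD cells. The library values of the groups did not overlap, with means of 369 ± 1.14 (SD, n = 2) and 324 ± 7.01 (SD, n = 3). Their exact Poisson intervals, which cover counting error only and are set as for LPP below, did overlap. These were 332 to 406.3 and 332.1 to 409.6 in Ctr-KD cells. With NSD2-1, NSD2-2 and NSD2-3 they were 295.3 to 364.4, 280.3 to 354.3 and 292.9 to 364. The Ctr-KD values lay far closer together than these intervals are wide. The log2 difference of CNN1 was -0.19 (SE 0.10, limma with Benjamini-Hochberg adjustment, adjusted p = 0.635). TAGLN, the transgelin SM22 that binds actin filaments (chr11:117070086-117078180, plus strand; its exons overlap those of PCSK7 on the other strand), had 3826 and 3754 in Ctr-KD cells and 3315, 3629.8 and 3401 in NSD2-KD cells. All 3 knockdown libraries lay below, at 87.5%, 95.8% and 89.7% of the Ctr-KD mean (log2 difference -0.14, SE 0.08). SMTN, smoothelin (chr22:31460091-31500743, plus strand), had 288 and 330.2 in Ctr-KD cells and 460.1, 409.6 and 324 in NSD2-KD cells. NSD2-1 and NSD2-2 were above both Ctr-KD libraries and NSD2-3 lay between them (log2 difference 0.35, SE 0.16, limma with Benjamini-Hochberg adjustment, adjusted p = 0.560). The other 4 genes of the family (TAGLN2, CNN2, CNN3 and the caldesmon gene CALD1) overlapped between groups, with log2 differences between -0.02 and 0.05, and each was below both Ctr-KD libraries with NSD2-1 and above both with NSD2-2.

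Among the myosin chains, the mean differences furthest from 0 were those of MYH10 and MYL12B, and neither passed the test. MYH9, the heavy chain of nonmuscle myosin IIA and by far the more abundant of the pair, had 12335 and 12553 in Ctr-KD cells and 11647, 12103 and 12951 in NSD2-KD cells. Its libraries overlapped, with a log2 difference of -0.03 (SE 0.08, 95% interval -0.21 to 0.15). MYH10 (chr17:8377525-8534694, minus strand) had 549.7 and 579 in Ctr-KD cells and 445, 407 and 547 in NSD2-KD cells. NSD2-2 and NSD2-1 were lowest, and NSD2-3 lay just under the lower Ctr-KD library, at 96.9% of the Ctr-KD mean (log2 difference -0.29, SE 0.14, 95% interval -0.60 to 0.03, limma with Benjamini-Hochberg adjustment, adjusted p = 0.587). The light chain genes MYL6, MYL9 and MYL12A had log2 differences between 0.03 and 0.05. MYL12B, a regulatory light chain gene nearly identical to MYL12A, had 517 and 547 in Ctr-KD cells and 537, 661 and 628 in NSD2-KD cells. Its NSD2-1 library lay between the Ctr-KD libraries and the other two lay above them (log2 difference 0.19, SE 0.12, limma with Benjamini-Hochberg adjustment, adjusted p = 0.688).

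The tropomyosins and crosslinkers, which coat and bundle filaments, differed little. Log2 differences of TPM1, TPM2, TPM3 and TPM4 lay between -0.14 and 0.02, and those of the alpha-actinins ACTN1 and ACTN4 and the filamins FLNA and FLNC between -0.11 and -0.02. FLNA, the most abundant crosslinker, had 21428 and 21426 in Ctr-KD cells and 19078, 21634 and 20242 in NSD2-KD cells. NSD2-2 was above both Ctr-KD libraries and the other knockdown libraries were below (log2 difference -0.08, SE 0.08). FLNC (chr7:128470460-128499328, plus strand) was the crosslinker whose groups did not overlap, with 5621 and 5842 against 5322, 5548 and 5151 (log2 difference -0.10, SE 0.08). ACTN4 had 3139 and 3116 in Ctr-KD cells and 2249.8, 3204 and 3355 in NSD2-KD cells. Its NSD2-1 library stood apart at 71.9% of the Ctr-KD mean, while the other knockdown libraries were above both Ctr-KD libraries.

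The adhesion linkers and LIM proteins varied most between siRNAs. LPP, a zyxin relative found at focal adhesions (chr3:187871072-188608460, plus strand), had 1032 and 962 in Ctr-KD cells and 315, 933 and 917 in NSD2-KD cells. The NSD2-1 library held 31.6% of the Ctr-KD mean, from 342 reads, while NSD2-2 and NSD2-3 lay just under the Ctr-KD libraries, at 93.6% and 91.9%. The exact Poisson 95% interval of the NSD2-1 value, which covers counting error only, was 282 to 349.9 normalized counts. The value was 34.3% of the lowest other library. In NSD2-1, 13 of the 3817 genes at least as abundant as TES lay below 50% of the lowest other library, beside 31 in NSD2-2 and 14 in NSD2-3. The log2 difference of LPP over the 3 siRNAs was -0.62 (SE 0.41, 95% interval -1.57 to 0.32, limma with Benjamini-Hochberg adjustment, adjusted p = 0.714), and without the NSD2-1 library it was -0.11 (-0.89 without NSD2-2 and -0.88 without NSD2-3). As there is 1 library of NSD2-1, this single low value has no replicate.

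PXN and PDLIM5 had higher means in NSD2-KD cells, through NSD2-2 and NSD2-3. PXN, paxillin, a scaffold of focal adhesions (chr12:120648242-120703574, minus strand; exons shared in part with PXN-AS1 on the other strand), had 495 and 478 in Ctr-KD cells and 405, 817 and 753 in NSD2-KD cells. NSD2-1 was below both Ctr-KD libraries, and NSD2-2 and NSD2-3 were far above them, at 168% and 155% of the Ctr-KD mean. The log2 difference of PXN was 0.37 (SE 0.27, limma with Benjamini-Hochberg adjustment, adjusted p = 0.738), and it moved with the library left out. It was 0.69 without NSD2-1 (adjusted p = 0.0687 by limma), 0.18 without NSD2-2 (adjusted p = 0.851) and 0.24 without NSD2-3 (adjusted p = 0.780). PDLIM5, a PDZ and LIM protein that binds alpha-actinin (chr4:95373008-95589378, plus strand), had 334 and 321 in Ctr-KD cells and 259, 482 and 491 in NSD2-KD cells. It showed the same order of libraries as PXN, at 78.9%, 147% and 149.8% of the Ctr-KD mean (log2 difference 0.27, SE 0.26, adjusted p = 0.814 by limma). The difference of PDLIM5 was 0.57 without NSD2-1 (adjusted p = 0.127 by limma), 0.12 without NSD2-2 (adjusted p = 0.907) and 0.11 without NSD2-3 (adjusted p = 0.908).

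TLN1, talin 1, which links integrins to actin (chr9:35696945-35732192, minus strand), was the linker with all knockdown libraries above. It had 3594 and 3566 in Ctr-KD cells and 3923, 4167 and 3946 in NSD2-KD cells, at 109.6%, 116% and 110.2% of the Ctr-KD mean (log2 difference 0.16, SE 0.08, limma with Benjamini-Hochberg adjustment, adjusted p = 0.578). The siRNAs gave like values here, and the groups did not overlap. TES, testin (chr7:115850560-115898837, plus strand), the gene of the 44 with the lowest normalized count (not divided by length), had 129 and 133 against 123, 159.5 and 169.9 (log2 difference 0.19, SE 0.17, adjusted p = 0.791 by limma). The vinculin gene VCL, the zyxin gene ZYX, the filament elongation factor VASP, PDLIM7 and LIMA1 overlapped between groups, with log2 differences between -0.15 (PDLIM7) and 0.13 (VASP). VASP was also the gene with the widest gap between the Ctr-KD libraries, 466 and 381, which is 0.29 on the log2 scale, where the median gap of the 44 genes was 0.04.

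**Figure D2:**
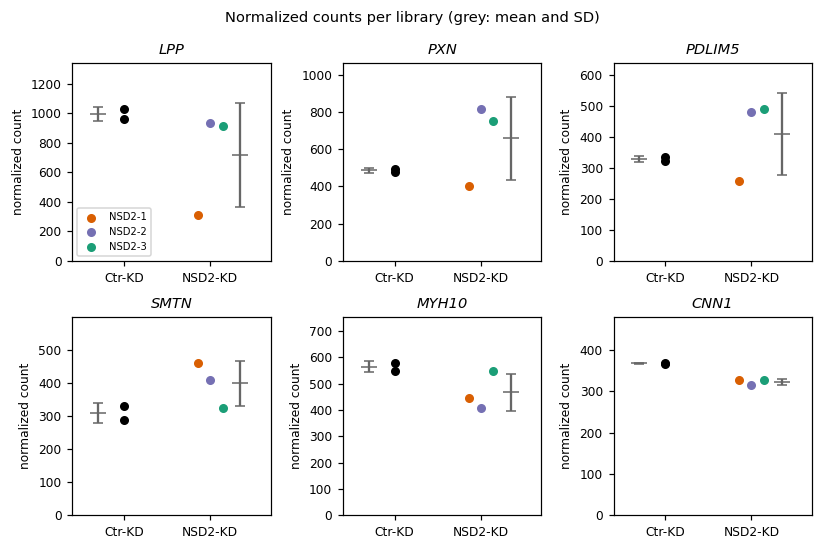
Normalized counts of LPP, PXN, PDLIM5, SMTN, MYH10 and CNN1 in each library, with Ctr-KD libraries in black, each siRNA in its own colour, and the mean and SD of each group in grey (Ctr-KD n = 2, NSD2-KD n = 3). LPP is low with NSD2-1 alone (315), PXN and PDLIM5 are high with NSD2-2 and NSD2-3, and CNN1 lies between 316 and 329 with every siRNA.

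For actin turnover, cofilin 1 (CFL1), which severs filaments, was the gene of the 44 with the smallest p. CFL1 (chr11:65590493-65629497, minus strand; exons shared in part with MUS81 and SNX32 on the other strand) had 2516 and 2591 in Ctr-KD cells and 2747, 3001 and 2958 in NSD2-KD cells. Each siRNA lay above both Ctr-KD libraries, at 107.6%, 118% and 116% of the mean (log2 difference 0.18, SE 0.08, 95% interval -0.0039 to 0.37). PFN2, the profilin of lower level in these cells (chr3:149682691-149768575, minus strand), had 638 and 595 in Ctr-KD cells and 555, 531 and 532 in NSD2-KD cells. Each siRNA lay below both Ctr-KD libraries (log2 difference -0.19, SE 0.10, limma with Benjamini-Hochberg adjustment, adjusted p = 0.600). PFN1 had a log2 difference of 0.0011 (SE 0.08, 95% interval -0.18 to 0.18), and CFL2 of -0.08 (SE 0.13).

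Among regulators of contraction, the kinase genes ROCK1 and ROCK2 had mean differences of opposite sign. ROCK2 had 348 and 309.7 in Ctr-KD cells and 353, 413 and 405 in NSD2-KD cells. NSD2-1 lay just above the higher Ctr-KD library and the others further up (log2 difference 0.25, SE 0.12, limma with Benjamini-Hochberg adjustment, adjusted p = 0.592). ROCK1 had 351 and 352 in Ctr-KD cells and 298, 351 and 287 in NSD2-KD cells. NSD2-1 and NSD2-3 were lower and NSD2-2 matched the lower Ctr-KD library (log2 difference -0.18, SE 0.12, adjusted p = 0.731 by limma). The myosin light chain kinase gene MYLK and RHOA had log2 differences of 0.04 and 0.06. VIM, the mesenchymal intermediate filament, had 14079 and 14087 in Ctr-KD cells and 12282, 14461 and 12730.0 in NSD2-KD cells. Its NSD2-2 library was above both Ctr-KD libraries and the others were below (log2 difference -0.10, SE 0.09).

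The siRNAs did not give the same pattern over the 44 genes. With NSD2-1, 31 genes lay below both Ctr-KD libraries (38.0% of all tested genes did) and 6 lay above both (38.6%). With NSD2-2, 12 lay below (38.8%) and 26 above (40.6%), and with NSD2-3, 18 lay below (38.7%) and 22 above (39.0%). Among the 3817 tested genes at least as abundant as TES, the share below both Ctr-KD libraries was 37.2% with NSD2-1, 36.3% with NSD2-2 and 37.2% with NSD2-3, and the share above both was 44.2%, 48.9% and 45.4%. The 26 genes above with NSD2-2 make up 59.1% of the 44. The median log2 difference of the 44 genes from the Ctr-KD mean was -0.14 with NSD2-1, 0.04 with NSD2-2 and 0.05 with NSD2-3, where that of all tested genes was 0.0055, 0.01 and 0.0044. Of the 3 knockdown libraries, NSD2-1 was the lowest for 29 of the 44 genes, beside 32.7% of all tested genes. Each siRNA has 1 library, so a difference between siRNAs cannot be tested against replicate error.

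The pattern with NSD2-1 was present under each of 3 other scalings, which were chosen after the data were seen. The number of genes below both Ctr-KD libraries with NSD2-1 was 31 when reads were scaled to the total on genes (36.1% of all tested genes), 33 by TMM (39.2%) and 26 after quantile normalization (34.7%). The number above was 6 (40.8%), 6 (37.3%) and 8 (40.5%). For NSD2-2 the direction depended on the scaling, with 15 genes below (42.3%) and 22 above (36.8%) by the total, 14 (39.97%) and 26 (39.5%) by TMM, and 22 (34.7%) and 14 (43.9%) after quantile normalization. For NSD2-3 the numbers below and above were 18 (38.4%) and 23 (39.3%), 18 (39.04%) and 22 (38.5%), and 17 (36.1%) and 18 (40.2%).

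By role, the median log2 difference with NSD2-1 was -0.22 for the 4 actins and also for the 10 adhesion linkers and LIM proteins, -0.17 for the 7 genes of the calponin and transgelin family and -0.14 for the 4 crosslinkers. It was 0.001 for the 6 myosin chains and -0.003 for the 4 turnover genes. The adhesion linkers were the role with the highest median with NSD2-3 (0.26). A difference of at least 0.5 on the log2 scale was reached by LPP and SMTN with NSD2-1, and by PDLIM5 and PXN with both NSD2-2 and NSD2-3. These are 2 of 44 genes with each siRNA, beside 6.34%, 10.0% and 6.05% of the tested genes at least as abundant as TES. The highest and the lowest siRNA differed by more than 1.5-fold for 4 genes, LIMA1, LPP, PDLIM5 and PXN, beside 15.0% of those abundant genes, and the median fold between them was 1.20.

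**Figure D3:**
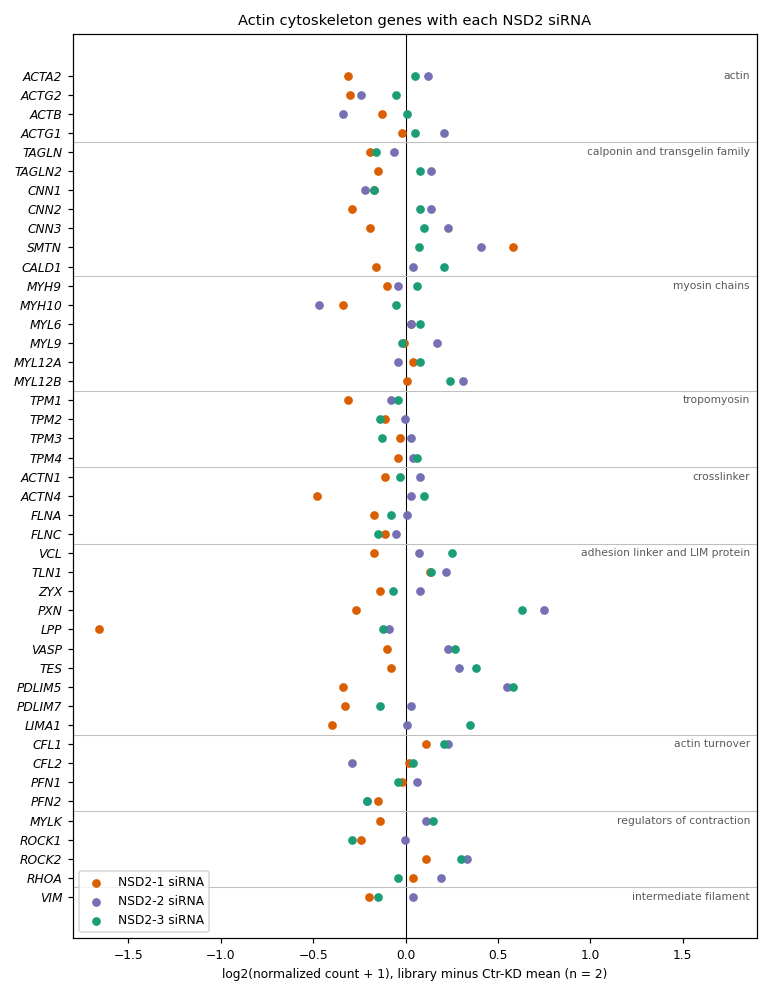
Log2(normalized count + 1) of each NSD2-KD library minus the Ctr-KD mean (n = 2) for the 44 genes, ordered by role. NSD2-1 (orange) is left of 0 for 35 genes and of the lowest value for LPP, while NSD2-2 (purple) and NSD2-3 (green) scatter on both sides, with medians of 0.04 and 0.05.

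**Figure D4:**
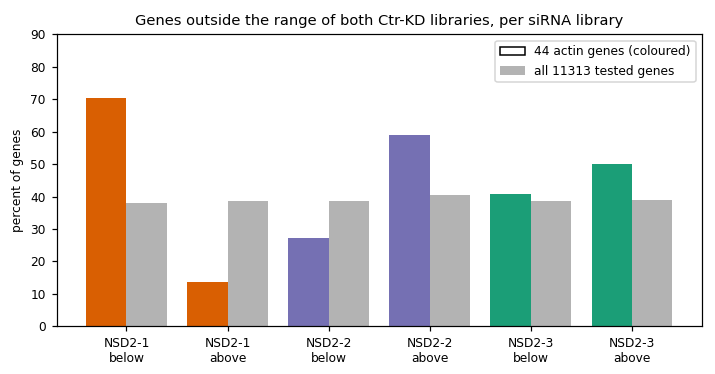
Percent of genes outside the range of both Ctr-KD libraries in each NSD2-KD library, for the 44 genes (coloured bars) and all 11313 tested genes (grey bars). With NSD2-1, 70.5% of the 44 genes lie below and 13.6% above, beside 38.0% and 38.6% of all tested genes.

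Paralogs can shift against each other without a change in their sum, so the share of a gene in the normalized counts of its family was compared over 17 shares. Whether the family sums stayed the same was not tested. In 8 of the 17 shares the groups did not overlap, 5 lower and 3 higher in NSD2-KD cells, with no background share to set beside them. Shares within a family depend on each other. Of these 8, MYH10, TAGLN, PFN2 and ROCK2 also did not overlap as single genes. The smallest p that 2 against 3 libraries allow in a two-sided exact permutation test is 0.1, and the smallest adjusted value was 0.486. The largest gap was that of ROCK2, which made up 49.8% and 46.8% of ROCK1 plus ROCK2 in Ctr-KD cells and 54.2%, 54.1% and 58.5% in NSD2-KD cells. All knockdown libraries were above, with means of 48.3% ± 2.11 (SD, n = 2) and 55.6% ± 2.53 (SD, n = 3) and an exact permutation p of 0.1. The share of ACTB in ACTB plus ACTG1 was 62.2% and 61.7% in Ctr-KD cells and 60.1%, 52.7% and 61.3% in NSD2-KD cells. It was lower with each siRNA, but by less than 1 percentage point from the lower Ctr-KD library with NSD2-3, and most of its gap came from NSD2-2.

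PFN2 made up 15.6% and 14.5% of the profilins in Ctr-KD cells and 13.9%, 12.7% and 13.6% in NSD2-KD cells. The share of CNN3 in the calponins was 24.0% ± 0.106 (SD, n = 2) with the control siRNA and 25.2% ± 0.584 (SD, n = 3) with the NSD2 siRNAs. Neither share overlapped between groups, and each had an exact permutation p of 0.1. TPM4 took 38.8% ± 0.119 (SD, n = 2) of the tropomyosin counts with the control siRNA and 40.7% ± 0.895 (SD, n = 3) over the NSD2 siRNAs, while MYH10 (4.34% and 3.66% of the myosin heavy chains), TAGLN (76.5% and 74.5% of the transgelins) and CFL2 (13.8% and 11.8% of the cofilins) were lower in mean share. Shares of counts per kilobase left the same 8 shares without overlap. The share of ACTA2 among ACTA2, ACTB and ACTG1 overlapped, at 6.68% ± 0.126 (SD, n = 2) and 6.78% ± 0.961 (SD, n = 3).

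**Figure D5:**
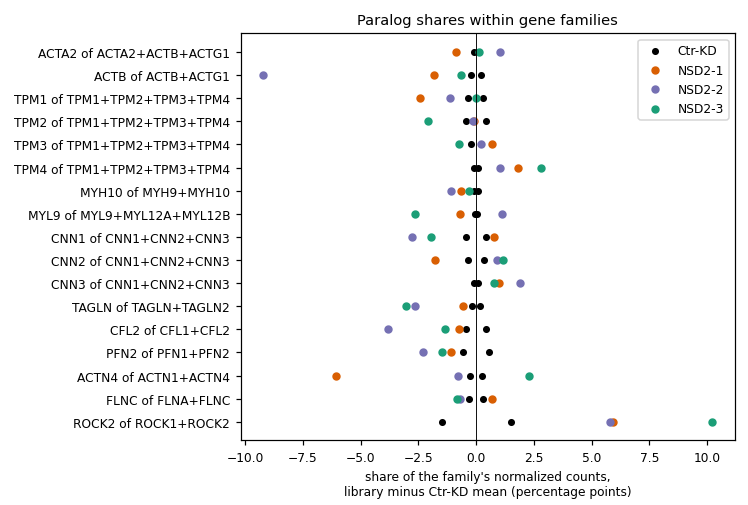
Share of each gene in the normalized counts of its family, as the difference from the Ctr-KD mean in percentage points, for Ctr-KD libraries (black) and each siRNA (colours). ROCK2 stands to the right with every siRNA (means 48.3% and 55.6%), and ACTB stands furthest to the left with NSD2-2 (52.7% of ACTB plus ACTG1).

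The wider actin pathway was read from 6 lists with 134 genes, of which 130 were tested. Of these 0 passed limma at an adjusted p under 0.05, at an unadjusted p under 0.05 there were 6 lower genes and 7 higher ones (4.99% and 4.19% of all tested genes), and the median log2 difference was 0.0078. In 18 genes all NSD2-KD libraries lay below both Ctr-KD libraries and in 23 all lay above, beside the 13.9% and 13.8% of all tested genes. Among the 15 formins and related genes, which build unbranched filaments, the median was -0.11, with 4 genes below without overlap and 2 above. Among 20 genes of the ARP2/3 complex and its activators, which build branched networks, the median was 0.0022, with 2 genes in each direction. Among 21 tested genes of capping, severing and monomer binding the median was 0.01, with 2 below and 4 above. The 41 tested crosslinkers, linkers and LIM proteins had a median of 0.02, with 7 below and 8 above.

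DIAPH3, a formin that also acts in cytokinesis, had 152 and 167 in Ctr-KD cells and 98.5, 59.0 and 75.2 in NSD2-KD cells. Each siRNA lay far below both Ctr-KD libraries (log2 difference -1.06, SE 0.22). DIAPH3 had the smallest adjusted p of the lists by limma (0.198), and DESeq2 called it lower (adjusted p = 0.0343) while edgeR did not (adjusted p = 0.142). The citron kinase gene CIT and the anillin gene ANLN, both known for the contractile ring of dividing cells, had the next largest differences among genes without overlap, -0.89 (SE 0.25) and -0.91 (SE 0.29). Their normalized counts were 189.6 and 181 against 126, 67.7 and 116 for CIT, and 665 and 669.7 against 398, 221 and 507 for ANLN. In both genes NSD2-2 was the lowest library and all knockdown libraries were below, with adjusted p-values by limma of 0.317 and 0.385. CDC42, known for the control of filopodia, had 634 and 632 against 563, 242 and 581, with NSD2-2 far under the other libraries (log2 difference -0.56, SE 0.33), and WASF3 had 77.2 and 79.2 against 75.4, 49.2 and 33.2 (-0.64, SE 0.31). No listed gene without overlap was higher by 0.5 or more on the log2 scale.

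Of the 9 listed genes of SRF and its partners, not all of them regulated by actin, 0 had an unadjusted p under 0.05 by limma. In this list 1 gene, ELK1, lay above both Ctr-KD libraries in all knockdown libraries. The next 3 genes were picked after their values were seen. SRF had 336 and 355 in Ctr-KD cells and 241, 292 and 367 in NSD2-KD cells. NSD2-1 was the lowest and NSD2-3 lay above both Ctr-KD libraries, so the groups overlapped (log2 difference -0.22, SE 0.17). MKL1, an actin-binding cofactor of SRF, had 230.5 and 209 against 185, 251 and 230.4, with NSD2-1 again the lowest (log2 difference 0.0063, SE 0.15). MYOCD, the smooth muscle cofactor, had 94.3 and 109 against 138, 80.8 and 65.4, and here NSD2-1 was the highest (log2 difference -0.17, SE 0.29).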

How the data were processed

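mRNA-seq was done on IMR-90 cells, with a kit that does not mark strand, and samples were grouped by the siRNA in the labels (Ctr-KD, n = 2, and NSD2-KD, n = 3). Read processing by the authors used HISAT2 on hg19, SAMtools to keep reads that map uniquely, and featureCounts. The signal in the deposited table is the normalized count, the count of a gene divided by 1 DESeq2 size factor per library. The annotation and strand setting of the counting are not given in the sources used here, so overlapping genes cannot be told apart: 28 of the 44 genes share exon bases with another gene, 11 with a protein-coding gene. A second deposited table holds the authors' DESeq2 fold changes and p-values and was not used.

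The 44 genes, their roles and all gene lists were chosen with earlier results of these data known. Whole reads were recovered for 100% of values (within 0.01 of a whole number), 2473691 to 2845063 per library, and genes with few reads are the least precise. The main test was limma 3.58.1 (R 4.3.3), with its trend option, on log2 of the normalized count plus a pseudocount of 1, over 11313 genes with a mean of at least 10, with Benjamini-Hochberg adjustment over all of them and a threshold of 0.05. This scale understates the change of low genes, and a change shared by all genes would not be seen. On recovered counts, edgeR 4.0.16 (quasi-likelihood, TMM) called 11 genes lower and 5 higher, and DESeq2 1.42.0 called 41 and 15. The fits were tested on simulated data. Further alternatives were other pseudocounts (0.5, 5), other filters (none, a mean of 50), no trend, robust estimation, quantile normalization, the replicate number as a block and each library left out in turn. Full statistics were set for the 6 lowest and 6 highest of the 44 genes by log2 difference, and other genes of the 44 are described by role. Pathway genes were named where their groups did not overlap and the log2 difference was at least 0.5 in size, at most 3 per list and direction, or where a tool called them. Gene models were those of GENCODE on GRCh37, the assembly of hg19. Of the listed names, 28 look like dates and were not traced to genes. The replicate numbers, which for NSD2-KD are those of the siRNAs, did not pair the libraries: the correlations of the deviations of same-numbered libraries were -0.0152 and -0.0267. The counts of 1 of the 6 pathway lists on its own are not reported here.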

Additional observations from a re-analysis of the deposited data

How the results depend on the processing

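In every alternative to the main fit that kept at least 2 libraries in each group, 0 of the 44 genes passed the threshold. Over the 15 alternatives, the 12 genes with the lowest or highest log2 difference kept their direction in all 180 values. They were picked by that difference in the same libraries, so the kept direction is no independent check. Sizes did move, as for LPP (-0.62, and -0.11 without NSD2-1) and PDLIM5 (0.27, and 0.11 without NSD2-3). The number of lower genes over the whole table (6) became 1 without the trend, 11 with edgeR, 41 with DESeq2, 84 with the replicate block and 0 to 22 with 1 library left out. The number of higher genes (4) became 0 without the trend, 8 after quantile normalization, 15 with DESeq2, 18 with the replicate block and 0 to 8 with 1 library left out. The replicate block leaves NSD2-3, which has no partner, out of the estimate, and the replicate numbers are those of the siRNAs. The 44 genes had 0 calls under it, and their median was -0.04. The genes of the 44 with all knockdown libraries below Ctr-KD (7) numbered 12 after quantile normalization and 7 to 15 with 1 library left out, with 15 without NSD2-2, where 20.6% of all tested genes lay below. Those above (3) numbered 4 to 18, with 18 without NSD2-1, where 22.3% did. At an unadjusted p under 0.05 by limma, 7 of the 44 were higher without NSD2-1 (5.14% of all tested genes), 4 lower without NSD2-2 (5.84%), and 3 lower (6.82%) and 2 higher (5.13%) without NSD2-3. It was 4 lower after quantile normalization (4.56%), 3 higher with robust estimation (4.30%), and 4 lower (7.21%) and 1 higher (4.20%) with the replicate block. A CArG box with 1 mismatch was found in 11 promoters, not 7. The causes of these shifts were not tested. With 2 libraries against 3, and 1 per siRNA, an effect of a single siRNA has no replicate.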
